A study of Danio rerio with 3 samples.

Results

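White blood cells were present among epicardial cells sorted from the zebrafish ventricle, and they are described here with the macrophages that formed about 1 in 2 of them. A droplet was kept as a cell when it reached a minimum number of detected genes, which 97, 268 and 148 droplets of the 3 libraries missed, and held no more than 5% of its unique molecular identifiers (UMIs, each standing for 1 captured RNA molecule) on mitochondrial genes. A kept cell was counted as a leukocyte when ptprc, laptm5, coro1a, lcp1 and spi1b together had 5 or more UMIs and at least 2 of these genes were detected. By this rule 367 of 15627 kept cells (2.35%) were leukocytes. A leukocyte with 10 or more UMIs over c1qa, c1qb and c1qc, the genes of complement component C1q, was counted as a macrophage, which gave 182 macrophages and 185 other leukocytes. The cells were chosen by the counts of these 8 genes, so their levels and every contrast between the classes are given as descriptions.

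The study followed the epicardium, the cell layer that covers the heart, after partial amputation of the ventricle. Each condition was 1 library: uninjured clutchmates (Ctrl), 3 days post-amputation (3 dpa) and 7 days post-amputation (7 dpa). All fish were 6 months old, of strain EK (tcf21:nucEGFP), in which regulatory sequence of tcf21, an epicardial transcription factor, drives a nuclear EGFP. Ventricles were washed free of blood, dissociated with Liberase DH and sorted for cells that were EGFP-positive and negative for the dead-cell dye propidium iodide, before droplet capture with the 10x 3′ v3 chemistry. The sort was therefore for tcf21 reporter cells and would remove a leukocyte without EGFP. The number of pooled fish is not given in the sources used here. With 1 library per condition no difference between conditions could be tested, and condition, library and fish cannot be told apart. A level below is the number of UMIs of a gene per 10000 UMIs pooled over the cells of a class, and all intervals are exact 95% intervals that cover counting error only.

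Leukocytes share ptprc (Cd45), a membrane phosphatase, and cytoskeletal proteins such as coro1a and lcp1 that serve their motility. Tissue macrophages engulf dying cells and debris, digest them in lysosomes, recover iron from the heme of red cells, and present peptides on MHC class II. Neutrophils reach wounds first and carry granule enzymes such as myeloperoxidase, while lymphoid cells, among them T and natural killer (NK) cells, carry receptors, adaptors and lytic proteins of their own. In the injured zebrafish heart, macrophages and neutrophils are known to enter the wound and to influence its repair.

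The files held 5284, 4390 and 7002 droplets for Ctrl, 3 dpa and 7 dpa, with 26092042, 52513639 and 45679493 UMIs. After filtering, 5098, 3905 and 6624 cells were kept. The median depth of leukocytes was 7685.5, 6669 and 6808 UMIs, against 4290.5, 9773 and 5408 UMIs in the other cells of the same libraries, so the 3 dpa leukocytes were shallower than their neighbours and those of Ctrl and 7 dpa were deeper. The libraries shared 8 to 13 cell barcodes in pairs, and no shared barcode was a leukocyte in both libraries.

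Epicardial markers were lower in the leukocytes than in the other sorted cells but were not absent. Pooled over the class, the 12 epicardial markers stood at 24.1, 31.7 and 26.4 UMIs per 10000 in macrophages of Ctrl, 3 dpa and 7 dpa and at 54.6, 50.1 and 88.5 in other leukocytes, against 165, 148 and 207 in the other cells. Defining genes of other contaminating classes were low: globins and further red cell genes summed to 0.030 to 0.674 in macrophages, and cardiomyocyte genes to 0.762 to 1.01. The 13 macrophage markers with enough counts in Ctrl and the 15 and 16 at 3 and 7 dpa were, for 12, 15 and 15 of them, at least 2-fold higher in leukocytes than in the other cells. Of all genes tested 18.7%, 14.8% and 17.1% were.

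Few cells outside the class lay just under the leukocyte limit, while many of the other leukocytes lay not far above it. Of the cells outside the class, 15 had 4 UMIs on the 5 genes, 1 short of the limit. In Ctrl, 3 dpa and 7 dpa, 29, 51 and 61 had 1 to 3, and 4980, 3729 and 6395 had none. With a limit of 10 UMIs the other leukocytes numbered 36, 37 and 42, in place of 52, 57 and 76. The macrophages then numbered 28, 60 and 87, in place of 30, 63 and 89. Among members, 14 had exactly 5 UMIs, and the median was 19, 23 and 18 in Ctrl, 3 dpa and 7 dpa, with the highest cell at 65, 102 and 75. Of the droplets that the quality filters removed, 39 of 1049 met the rule: 10 of 186 in Ctrl, 4 of 485 at 3 dpa and 25 of 378 at 7 dpa.

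The C1q limit lay between well-separated groups. Of the 367 leukocytes, 164 had no C1q UMI, 15 had 1 to 4, 6 had 5 to 9 and 9 had 10 to 19. The macrophages had a median of 41, 67 and 55 C1q UMIs, with lowest cells at 15, 10 and 17 and highest cells at 116, 209 and 148. Outside the leukocytes, 1 Ctrl cell reached 10 C1q UMIs and none did at 3 or 7 dpa.

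**Figure D1:**
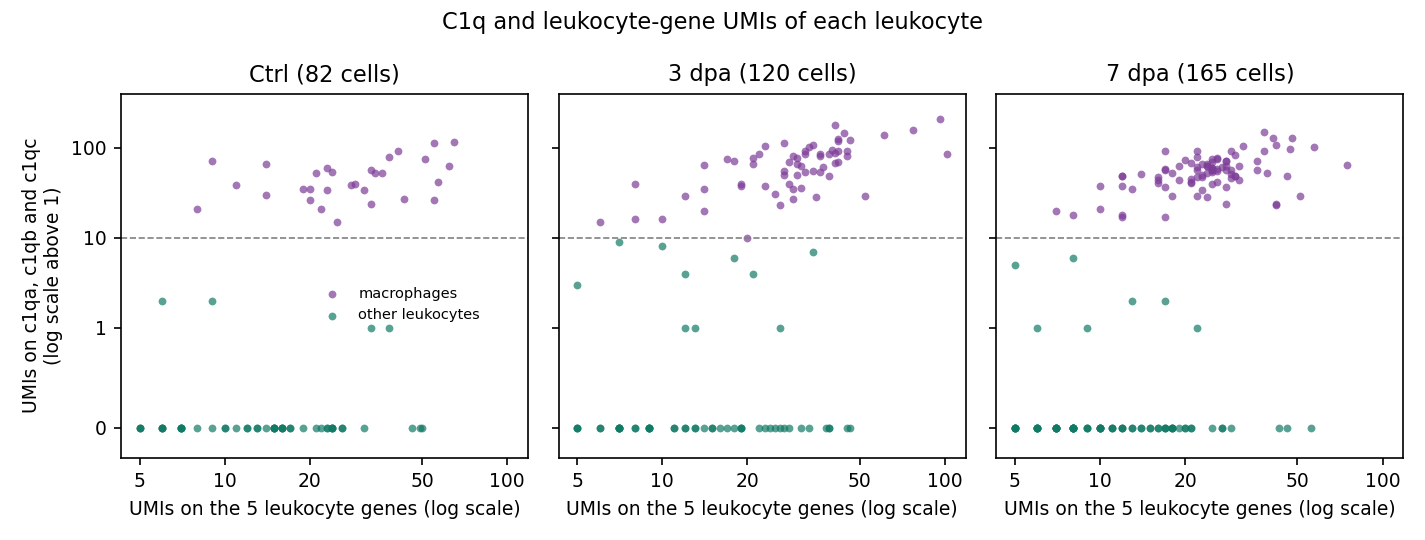
Each point is 1 leukocyte of the named library, with its UMIs on the 5 leukocyte genes (x axis, log scale) and on c1qa, c1qb and c1qc (y axis, log scale above 1), and the dashed line marks the limit of 10 C1q UMIs. In all 3 libraries 1 cloud of macrophages lies above the line and most other leukocytes lie at 0, with 6 cells over the 3 libraries at 5 to 9.

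The leukocyte share of the sorted cells was higher after amputation than in Ctrl. Most of that difference lay in the macrophages as split off by the C1q limit. Leukocytes were 1.61% of kept cells in Ctrl (interval 1.28 to 1.99), 3.07% in the 3 dpa library (2.55 to 3.66) and 2.49% in the 7 dpa library (2.13 to 2.90). The 3 dpa share was 1.91-fold that of Ctrl (1.43 to 2.56) and the 7 dpa share 1.55-fold (1.18 to 2.04). Macrophages made up 0.588% (0.397 to 0.839), 1.61% (1.24 to 2.06) and 1.34% (1.08 to 1.65) of kept cells, from 30, 63 and 89 cells. The 3 dpa share was 2.74-fold that of Ctrl (1.75 to 4.39) and the 7 dpa share 2.28-fold (1.49 to 3.58), while the 7 dpa and 3 dpa libraries could not be separated by counting error (0.833-fold, 0.596 to 1.17).

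The other leukocytes made up 1.02% (0.763 to 1.34), 1.46% (1.11 to 1.89) and 1.15% (0.905 to 1.43) of kept cells in Ctrl, 3 dpa and 7 dpa, from 52, 57 and 76 cells. For them the 3 dpa share was 1.43-fold that of Ctrl (0.965 to 2.13) and the 7 dpa share 1.12-fold (0.780 to 1.63), with both intervals spanning 1. Macrophages were 36.6% of the leukocytes in Ctrl (26.2 to 48.0), 52.5% in the 3 dpa library (43.2 to 61.7) and 53.9% in the 7 dpa library (46.0 to 61.7). These values depend on the C1q limit. Below it lay 20, 9 and 10 cells high in ccl35.1, a set described below. Of these, 18 of 20 in Ctrl and 6 of 9 at 3 dpa had a UMI of the macrophage gene mpeg1.1. Shares with this set counted as macrophages were not computed. These are shares of a sorted suspension, which depend on the gate, on blood left after washing and on the yield of every other cell.

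**Figure D2:**
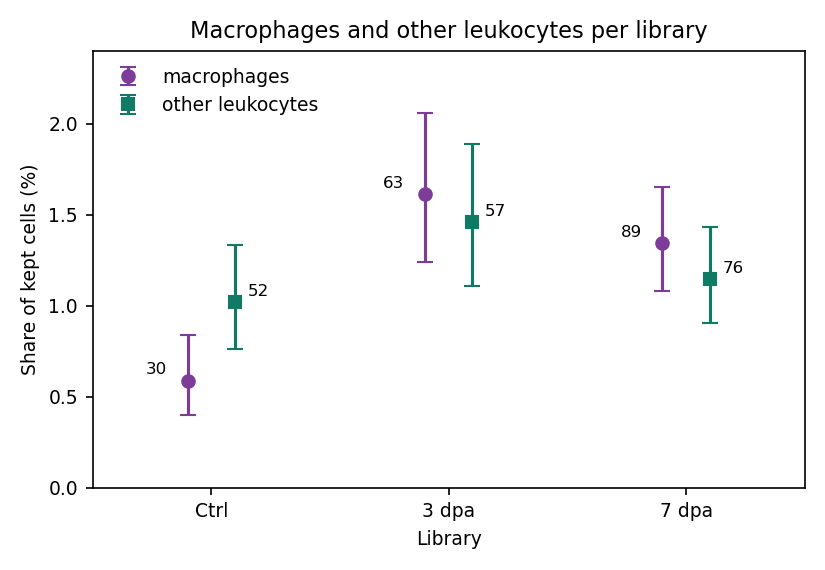
Share of kept cells (y axis, percent) that were macrophages (circles) and other leukocytes (squares) in each library (x axis), with exact 95% binomial intervals as bars and the number of cells beside each point. The macrophage share is 0.588% in Ctrl, 1.61% at 3 dpa and 1.34% at 7 dpa, while the intervals of the other leukocytes overlap between all libraries.

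Most leukocytes carried no tcf21 RNA, although a minority carried much of it. No tcf21 UMI was counted in 251 of the 367. A UMI was present in 30.5%, 30% and 33% of leukocytes in Ctrl, 3 dpa and 7 dpa, against 97.9%, 98.2% and 98.7% of the other cells, at the median depths given above. A level of 10 or more per 10000 was reached by 77 leukocytes, namely 33 macrophages and 44 other leukocytes, and a further 39 had a UMI below that level. Those 77 cells were deeper than the remaining leukocytes, with a median of 12201, 15285.5 and 12226 UMIs against 6293.5, 5824 and 5704.5. Their own median tcf21 level was 31.0, 17.5 and 32.2, against 70.9, 36.6 and 63.4 in the other cells. Scrublet scores each droplet for holding 2 cells, and a number of top scores set in advance from the droplets per library was marked. This marked 216 of 5098, 137 of 3905 and 371 of 6624 kept cells in Ctrl, 3 dpa and 7 dpa. Among them were 13 of 82, 15 of 120 and 27 of 165 leukocytes, a larger share than of all kept cells. Leukocyte and macrophage shares, counts of genes at least 2-fold apart and 88 named ratios were also computed without the tcf21-rich or the marked cells. Sums and counts over gene lists, single-cell values, correlations and sets of cells were not. Without the tcf21-rich cells the leukocyte share was 1.22%, 2.51% and 1.96%.

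Set against the other sorted cells, leukocytes were higher for nearly all genes of the pan-leukocyte list. Of the genes with at least 50 UMIs over both groups, 18.7% in Ctrl, 14.8% at 3 dpa and 17.1% at 7 dpa were at least 2-fold higher in leukocytes, and 29.3%, 28% and 27.4% were at least 2-fold lower. Of the list of pan-leukocyte genes, which left out the rule genes, 11 of 12, 12 of 12 and 11 of 12 tested were higher. Of the epicardial markers none was higher, and 10 of 12, 12 of 12 and 12 of 12 were lower. All cardiomyocyte genes tested were lower in leukocytes, 7 of 7, 8 of 8 and 8 of 8, and so were all red cell genes, 5 of 5, 6 of 6 and 6 of 6.

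Several genes outside the rule were nearly private to the class. The chemokine ccl34a.4 was 5635-, 3429- and 5111-fold higher in leukocytes than in the other cells of Ctrl, 3 dpa and 7 dpa. For the chemokine ccl35.1 the ratios were 6400, 2369 and 2720, and for mfap4, whose regulatory sequence is used to label zebrafish macrophages, they were 6315, 3490 and 5182. The scavenger receptor gene marco had ratios of 1977, 2322 and 2121. A marco UMI was found in 96.7%, 98.4% and 100% of macrophages, at median depths of 9718, 9055 and 8561 UMIs, against 0.0997%, 0.370% and 0.186% of the other cells.

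Most macrophage markers and lysosomal genes tested were at least 2-fold higher in macrophages than in the other leukocytes. Of the genes tested, 15% in Ctrl, 16.5% at 3 dpa and 18.5% at 7 dpa were at least 2-fold higher in macrophages, and 13.6%, 9.6% and 14.4% were at least 2-fold lower. Macrophage markers were higher for 11 of 12, 13 of 15 and 15 of 16 genes tested, with median log2 ratios of 3.94, 3.47 and 4.93. Lysosomal genes were higher for 14 of 18, 15 of 19 and 15 of 19, with medians of 1.54, 1.92 and 2.24 and none lower. MHC class II genes summed to 250, 118 and 192 UMIs per 10000 in macrophages and to 68.9, 52.9 and 39.9 in other leukocytes. The NK and innate lymphoid list lay on the other side, with 0 genes higher and 4 of 4, 6 of 6 and 4 of 4 lower in macrophages.

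Among single genes, marco was 440-, 33.6- and 290-fold higher in macrophages than in the other leukocytes of Ctrl, 3 dpa and 7 dpa. The gene havcr1, a member of the Tim family of phosphatidylserine receptors that bind dying cells, was 66.8-, 17.2- and 36-fold higher. A C1q-like gene listed as si:dkey-5n18.1 (newer symbol c1ql1) was 90.6-, 57.6- and 364-fold higher. The mannose receptor mrc1b had no UMI in the Ctrl other leukocytes, where 3 counts would place it at least 100-fold higher in macrophages, and its ratios at 3 and 7 dpa were 42.9 and 424. These 4 ratios were lowest at 3 dpa. The C1q level in the other leukocytes was 1.51 UMIs per 10000 at 3 dpa, 0.188 in Ctrl and 0.429 at 7 dpa. C1q was used to split the classes, and a relation between its level and the ratios was not tested.

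Across the libraries several identity genes of macrophages stood within 2-fold of each other, while hmox1a, cd74a, mfap4, grn1 and some interferon-response genes differed by more. The next paragraphs set 3 dpa and 7 dpa against Ctrl, over 695486 and 845582 macrophage UMIs at 3 and 7 dpa and 335489 in Ctrl. For 3 dpa against Ctrl, 15.3% of 1897 genes were at least 2-fold higher and 4.38% at least 2-fold lower, together 19.7%. For 7 dpa against Ctrl the shares were 5.36% and 2.05% of 1903 genes, together 7.41%, and for 7 dpa against 3 dpa 3.59% and 9.16% of 2588 genes, together 12.8%. The median gene stood at a log2 ratio of 0.18 for 3 dpa against Ctrl, 0.01 for 7 dpa against Ctrl and -0.17 for 7 dpa against 3 dpa, and the ratios below are not shifted by it. Without the 2, 12 and 3 macrophages with cell cycle genes at 10 or more UMIs per 10000, an alternative chosen after the values were seen, 141 genes were higher and 65 lower of 1484 for 3 dpa against Ctrl, in place of 290 and 83.

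The heme oxygenase gene was lower in macrophages after amputation. Its transcript hmox1a, whose product opens the heme ring and frees its iron, stood at 104 UMIs per 10000 (100 to 107) in Ctrl macrophages, 20.5 in those of 3 dpa (19.5 to 21.6) and 39.1 in those of 7 dpa (37.8 to 40.5). Single macrophages had a median of 41.4, 2.99 and 6.11 and a maximum of 666, 324 and 383, so that the libraries overlapped in range and differed in the bulk of their cells. The log2 ratio to Ctrl was -2.34 at 3 dpa and -1.41 at 7 dpa, and the level at 7 dpa was 1.91-fold (1.79 to 2.03) that at 3 dpa. After every cell was thinned to 1800 UMIs, 90%, 50% and 60.2% of macrophages had an hmox1a UMI, against 90%, 74.6% and 77.5% unthinned and 5.16%, 21.6% and 8.60% of the thinned other cells. Thinning left out 0, 1 and 1 macrophages and 478, 196 and 424 other cells. In the other cells the level was opposite in direction, 0.831, 1.88 and 0.914. Removing the droplets with the highest Scrublet scores moved the log2 ratio for 3 dpa against Ctrl to -3.16.

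The ferritin gene fthl27 (ENSDARG00000031776), a heavy-chain-like subunit of the iron store, followed the same order. Its level was 131 in Ctrl macrophages, 56.1 at 3 dpa and 68.9 at 7 dpa, with single-cell medians of 58.2, 31.2 and 37.8. The log2 ratios to Ctrl were -1.23 and -0.93. Across single macrophages the ranks of hmox1a and fthl27 ran together, with Spearman's rho of 0.92 over 30 cells in Ctrl, 0.61 over 63 cells at 3 dpa and 0.75 over 89 cells at 7 dpa. These cells share a library and differ in depth, so the correlations are descriptions.

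The iron list held genes on both sides. Of 7 members tested for 3 dpa against Ctrl, hmox1a and fthl27 (ENSDARG00000031776) were past 2-fold lower, beside 4.38% of all genes. The biliverdin reductase gene blvrb was past 2-fold higher, beside 15.3% of all genes, at 0.748 UMIs per 10000 at 3 dpa against 0.119 in Ctrl. The ferroportin gene slc40a1, which exports iron, stood at 1.22, 1.16 and 1.64, and the ferritin fth1a at 3.25, 5.49 and 3.09. Summed over the list, the level was 241, 85.3 and 114 in macrophages, 88.7, 38.5 and 26.3 in other leukocytes and 10.5, 15.7 and 16.3 in the other cells.

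Of 7 antigen-presentation genes tested, 3 were past 2-fold lower at 3 dpa against Ctrl, beside 4.38% of all genes. None of the 7 was past 2-fold at 7 dpa against Ctrl, beside 7.41% of all genes. The invariant chain gene cd74a, whose product escorts MHC class II molecules, stood at 84.5, 22.5 and 54.5 UMIs per 10000 in macrophages of Ctrl, 3 dpa and 7 dpa, with single-cell medians of 77.8, 19.4 and 55.1. It was present in 30 of 30, 60 of 63 and 89 of 89 macrophages. The log2 ratio to Ctrl was -1.91 at 3 dpa and -0.63 at 7 dpa, and the level at 7 dpa was 2.42-fold (2.29 to 2.57) that at 3 dpa. Its paralog cd74b stood at 36.9, 18.8 and 32.9.

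Other genes of the class II list had smaller differences, and 1 lay on the other side. The MHC class II beta chain gene mhc2dab stood at 3.49 (2.88 to 4.18), 1.58 (1.3 to 1.91) and 3.23 (2.86 to 3.64) UMIs per 10000. The list member si:busm1-266f07.2 stood at 59, 29.4 and 43.7. Its pooled ratio of 0.499 (0.469 to 0.531) for 3 dpa against Ctrl lies on the 2-fold limit. The single-cell medians were closer together, at 52.5, 37.8 and 38.3. The cathepsin S gene ctss2.1, whose enzyme trims the invariant chain in mammals, stood at 51.6, 31.6 and 40.4. Its relative ctss2.2 stood at 12.1, 13 and 14.7, with a ratio of 1.07 (0.954 to 1.21) for 3 dpa against Ctrl. The median log2 ratio of the list for 3 dpa against Ctrl was -0.97, and 6 of 7 members had an interval below 1. For 7 dpa against Ctrl the median was -0.17. For 7 dpa against 3 dpa, cd74a and mhc2dab were past 2-fold higher, beside 3.59% of all genes. All 7 intervals lay above 1 and the median was 0.70.

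Within a library the class II genes were correlated from cell to cell. Spearman's rho between cd74a and cd74b was 0.79, 0.79 and 0.78, and between cd74a and si:busm1-266f07.2 it was 0.79, 0.75 and 0.71. For hmox1a and cd74a it was -0.10, 0.12 and 0.27. All 3 class II genes were related to depth in every library: the rho with the UMI total was -0.69, -0.43 and -0.52 for cd74a, -0.81, -0.42 and -0.47 for cd74b, and -0.54, -0.59 and -0.58 for si:busm1-266f07.2. The part of depth in the correlations between these genes was not tested.

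**Figure D3:**
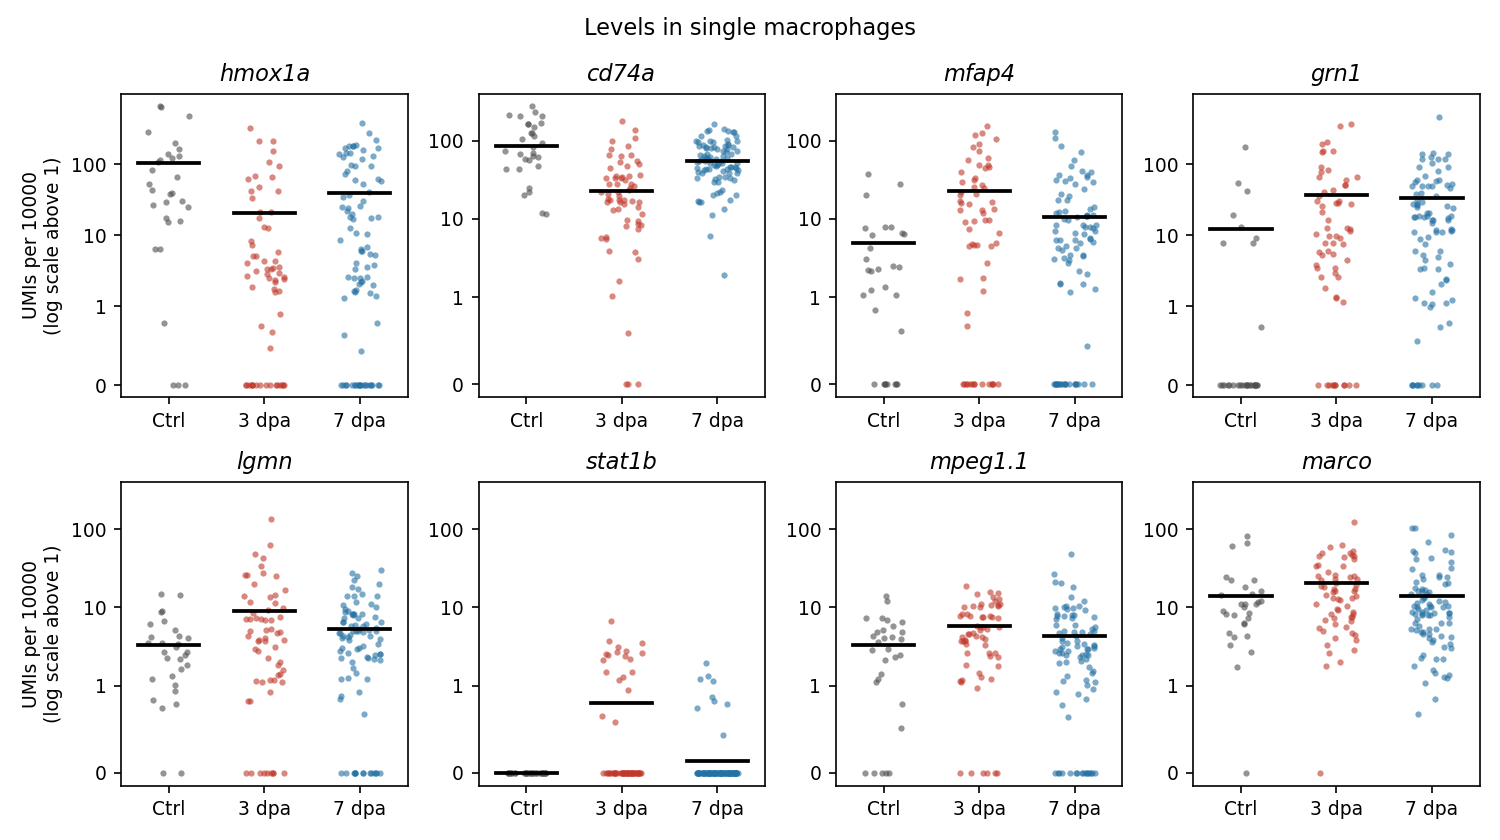
Level of 8 genes (y axis, UMIs per 10000, log scale above 1) in each macrophage (points) of each library (x axis), with the pooled level as a line. The pooled hmox1a level is 104 in Ctrl, 20.5 at 3 dpa and 39.1 at 7 dpa, cd74a runs 84.5, 22.5 and 54.5, mfap4 runs 4.89, 22.6 and 10.7, and stat1b has no UMI in Ctrl.

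Several macrophage markers stood close to each other in the 3 libraries. The gene havcr1 stood at 6.29, 5.90 and 6.02 UMIs per 10000, with ratios to Ctrl of 0.937 (0.792 to 1.11) and 0.957 (0.814 to 1.13). The chemerin receptor gene cmklr1 stood at 3.13, 3.01 and 3.94 and marco at 13.8, 20.7 and 13.8. The perforin-like gene mpeg1.1, whose promoter labels zebrafish macrophages, stood at 3.34, 5.78 and 4.35. For each of these 4 genes the 3 levels lay within 2-fold of each other.

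The gene mfap4 was higher after amputation. Its level was 4.89 in Ctrl macrophages (4.17 to 5.70), 22.6 in those of 3 dpa (21.5 to 23.8) and 10.7 in those of 7 dpa (9.98 to 11.4), with single-cell medians of 2.2, 9.72 and 5.75 and UMIs in 22 of 30, 49 of 63 and 70 of 89 cells. The 3 dpa level was 4.63-fold that of Ctrl (3.94 to 5.47) and the 7 dpa level 2.18-fold (1.85 to 2.59). After thinning to 1800 UMIs, 36.7%, 62.9% and 56.8% of macrophages had an mfap4 UMI, against 73.3%, 77.8% and 78.7% unthinned. The CSF1 receptor gene csf1ra, through which macrophages receive survival signals, ran the other way, with a ratio to Ctrl of 0.443 (0.303 to 0.647) at 3 dpa and 0.540 at 7 dpa.

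Progranulin-family genes showed a wide difference between the libraries. The gene grn1 (newer symbol grna.1) stood at 12.2, 37.7 and 34 UMIs per 10000 in macrophages of Ctrl, 3 dpa and 7 dpa. It was counted in 9 of 30 Ctrl macrophages, 52 of 63 at 3 dpa and 80 of 89 at 7 dpa, with single-cell medians of 0, 9.84 and 16.7. A single cell held 49% of its Ctrl UMIs. After thinning, 23.3%, 69.4% and 71.6% of macrophages had a UMI, against 30%, 82.5% and 89.9% unthinned. The 3 dpa level was 3.08-fold that of Ctrl (2.78 to 3.43) and the 7 dpa level 2.78-fold (2.51 to 3.09).

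Its relative grn2 stood at 0.268, 11.9 and 12.1, but 1 cell held 56%, 64% and 84% of the UMIs, so these levels describe few cells. The galectin-binding glycoprotein gene lgals3bpb stood at 0.566, 7.63 and 3.70, in 9, 27 and 38 macrophages, with 26%, 30% and 37% of its UMIs in the top cell. In total 4 of 15 macrophage markers tested were past 2-fold higher at 3 dpa against Ctrl and 1 lower, beside 15.3% and 4.38% of all genes. At 7 dpa against Ctrl 6 of 16 markers were higher and none lower, beside 5.36% and 2.05% of all genes. The median log2 ratios of the markers were 0.12 and 0.29. The 7 dpa genes included mertka, a receptor kinase for apoptotic-cell uptake, at 0.596, 0.762 and 1.57 in 9, 25 and 52 cells.

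Of the lysosomal list, 5 of 19 genes tested were past 2-fold higher at 3 dpa than in Ctrl, all of them proteases, while 15.3% of all genes were. Legumain, the asparaginyl endopeptidase encoded by lgmn, stood at 3.31, 9.0 and 5.32 UMIs per 10000, and the cathepsin D gene ctsd at 3.99, 9.81 and 6.74. The cathepsin L gene ctsla stood at 1.01, 5.32 and 2.89 and ctsz at 1.73, 4.03 and 2.05. These 4 and ctsk were the genes past 2-fold, none was lower, and the median log2 ratio was 0.56. The lysosomal protease gene ctss2.1, placed on the class II list, ran the other way, with the levels given above. At 7 dpa against Ctrl only ctsla was past 2-fold, beside 7.41% of all genes, and the median was 0.13. For 7 dpa against 3 dpa 14 of 19 intervals lay below 1. The list sum was 75.8, 111 and 83.8 in macrophages and 38, 48.8 and 35.4 in the other cells. Both were highest at 3 dpa, while at 7 dpa the macrophages stood above Ctrl and the other cells below it. For ctsla the other cells held more than the macrophages, 5.75, 8.75 and 5.80, and the part of epicardial RNA in its macrophage level was not tested.

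**Figure D4:**
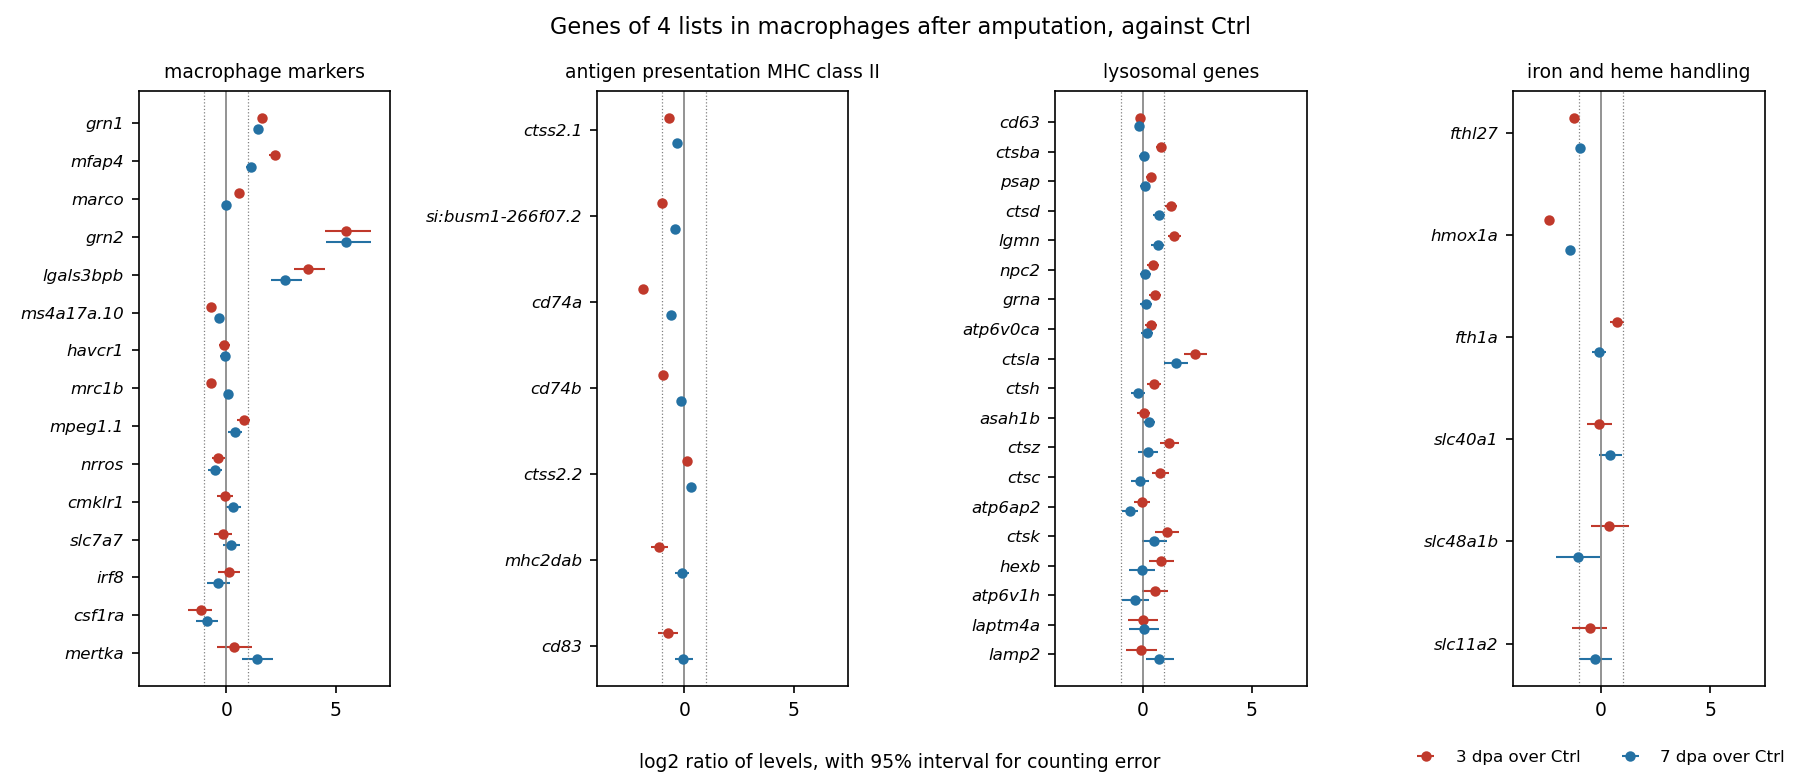
Log2 ratio of the macrophage level at 3 dpa (red) and 7 dpa (blue) over Ctrl (x axis) with its 95% interval, for the members (rows) of 4 gene lists that had at least 50 UMIs for 3 dpa and Ctrl together and a ratio in both comparisons. Dotted lines mark 2-fold. The MHC class II genes and hmox1a lie left of 0 at 3 dpa apart from ctss2.2, and most lysosomal genes lie right of it.

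Chemokine genes of macrophages past 2-fold at 3 dpa against Ctrl were higher for ligands and lower for receptors. The most abundant ligand, ccl34a.4, stood at 39.3, 29.4 and 31.4 UMIs per 10000 and ccl35.1 at 35.7, 22.4 and 26.0. Of 9 ligands tested, 3 were past 2-fold higher at 3 dpa against Ctrl, namely ccl34b.8, cxcl11.1 and cxcl8a, and none lower, beside 15.3% of all genes higher. Single cells held 42% of the 3 dpa UMIs of cxcl11.1 and 38% of those of cxcl8a. The first of these, ccl34b.8, stood at 0.507, 2.67 and 1.31 in 9, 33 and 25 macrophages and at 0, 0.00338 and 0 in the other cells. Among receptors, cxcr4b, which binds Cxcl12, stood at 11, 5.28 and 8.33 and cxcr3.2 at 3.73, 1.68 and 3.17. Both, of 4 receptors tested, were past 2-fold lower at 3 dpa against Ctrl, beside 4.38% of all genes. The receptor ccr9a stood at 2.38, 3.44 and 5.24, past 2-fold higher at 7 dpa against Ctrl at a ratio of 2.2 (1.73 to 2.82).

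A few further genes were low at 3 dpa. The myeloid transcription factor gene cebpa stood at 4.80, 2.19 and 5.11 UMIs per 10000. The metalloproteinase inhibitor gene timp4.3 stood at 2.92, 0.489 and 2.46, in 15 of 30, 9 of 63 and 53 of 89 macrophages. Its ratio was 0.167 (0.11 to 0.25) for 3 dpa against Ctrl and 5.03 (3.49 to 7.46) for 7 dpa against 3 dpa. The small membrane protein gene si:dkey-262k9.4 (newer symbol fxyd5) had the same shape at 7.03, 2.57 and 5.52.

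Some interferon-response genes, 4 of 10 tested, were past 2-fold higher at 3 dpa than in Ctrl, beside 15.3% of all genes. The transcription factor gene stat1b had no UMI in the 30 Ctrl macrophages and stood at 0.805 at 3 dpa, in 19 of 63 cells, and at 0.130 at 7 dpa, in 9 of 89. With 3 counts taken for the Ctrl macrophages together, the 3 dpa level was at least 9.0-fold higher. The ubiquitin-like gene isg15 stood at 0.0596, 3.72 and 0.307, in 2, 19 and 10 macrophages, and the RIG-I-like receptor gene dhx58 at 0.0596, 0.633 and 0.0828, in 2, 19 and 6. The 4 genes were isg15, stat1b, irf7 and mxc, and none of the 10 was past 2-fold lower. Of 10 tested for 7 dpa against 3 dpa, 3 were lower, all among these 4, beside 9.16% of all genes.

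The interferon list was not a macrophage matter alone. Its sum was 21.3, 31.0 and 25.9 UMIs per 10000 in macrophages, 26.2, 42.7 and 33.9 in other leukocytes and 10.2, 18.4 and 14.2 in the other cells. In the other cells isg15 stood at 0.131, 1.94 and 0.342 and stat1b at 0.0164, 0.343 and 0.124, in the same order as in macrophages. The beta-2-microglobulin gene b2m, on the same list, stood at 15.7, 15.5 and 18.5 in macrophages.

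Proliferation genes marked a minority of the macrophages. Cell cycle genes summed to 10 or more UMIs per 10000 in 2 of 30 Ctrl macrophages (6.67%), 12 of 63 at 3 dpa (19%, 10.2 to 30.9) and 3 of 89 at 7 dpa (3.37%). The replication clamp gene pcna stood at 0.686, 2.0 and 0.225. The list sum was 4.08, 13.9 and 2.63 in macrophages and nearly the same, 2.71, 12.7 and 2.44, in the other cells. How much of it belonged to the macrophages themselves was not tested.

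Some further genes that were higher in macrophages at 3 dpa than in Ctrl were also higher in the surrounding cells. The fatty-acid-binding protein gene fabp11a stood at 0.864, 9.92 and 2.41 UMIs per 10000, against 6.60, 13.2 and 5.97 in the other cells. Its difference was larger in macrophages, and at 7 dpa against Ctrl it was higher in macrophages and lower in the other cells. Fibronectin genes were past 2-fold higher at both times, with fn1a at 0.328, 4.11 and 1.53 against 0.915, 17.6 and 4.41 in the other cells. Epicardial markers themselves were past 2-fold higher for 5 of 10 genes at 3 dpa against Ctrl in macrophages and lower for 1. Of all genes 15.3% were higher and 4.38% lower. The other cells had at most 0.00458 UMIs per 10000 of mfap4. A grn1 UMI was found in 0.0598%, 1.08% and 0.248% of them unthinned, against at most 0.223% after thinning to 1800 UMIs. The part of RNA from the surrounding cells in the macrophage levels was not tested.

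Stress-related genes were measured because dissociation can induce them. Immediate early and heat shock genes summed to 101, 80.2 and 115 UMIs per 10000 in macrophages, 96.2, 106 and 163 in other leukocytes and 281, 107 and 195 in the other cells. In macrophages 2 of 21 were past 2-fold higher at 3 dpa against Ctrl and 6 lower, beside 15.3% and 4.38% of all genes. The median log2 ratio of the list was -0.42. For 7 dpa against Ctrl 1 of 22 was higher and 3 lower, beside 5.36% and 2.05% of all genes. The part of dissociation in the differences between libraries was not tested.

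At 7 dpa a few genes were highest of the 3 libraries. The transporter gene slc43a3b stood at 3.67, 4.85 and 8.11 UMIs per 10000, a ratio to Ctrl of 2.21 (1.82 to 2.70), and the phosphatase gene ssh2a, which acts on the actin regulator cofilin, at 0.179, 0.359 and 0.698. The gene BX640512.3 (newer symbol asgr1b) stood at 0.358, 0.992 and 1.04. The unnamed gene CR318588.1 stood at 70.0, 102 and 114 in macrophages and at 2.58, 18.4 and 30.6 in the other cells.

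The other leukocytes were shallow cells of several kinds, with a median of 4658, 3789 and 3550 UMIs and 1188, 1033 and 993.5 genes in Ctrl, 3 dpa and 7 dpa. For 3 dpa against Ctrl, 12.1% of 1169 genes tested were at least 2-fold higher and 7.78% at least 2-fold lower, together 19.9%. For 7 dpa against Ctrl the shares were 9.41% and 5.78% of 1349 genes, together 15.2%, and for 7 dpa against 3 dpa 5.92% and 9.14% of 1335, together 15.1%. Without the neutrophil-gene cells described below, an alternative chosen after the values were seen, 72 genes were higher and 47 lower of 1121 for 7 dpa against 3 dpa, in place of 79 and 122, so the larger number lay on the other side. A ratio here mixes what a cell makes with how many cells of each kind were caught, and these cannot be told apart in pooled levels, so the cells are also counted in sets.

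Cells with lymphoid genes were the most frequent kind. A cell was assigned to them when 2 or more genes of the NK and innate lymphoid list or of the T cell list gave 3 or more UMIs. This was met by 37 of 52 other leukocytes in Ctrl (71.2%, 56.9 to 82.9), 28 of 57 at 3 dpa (49.1%, 35.6 to 62.7) and 51 of 76 at 7 dpa (67.1%, 55.4 to 77.5). Of these cells 8, 2 and 3 also belonged to the ccl35.1 set described below. The NK list holds the chemokine ccl33.3, which was counted in 13 of the 20 Ctrl cells of that set. Both lists were met by 16, 16 and 21 cells, so T and NK genes were not separated by this limit. The NK list alone was met by 0.0399%, 0.185% and 0.0929% of the other cells. Summed over the list, NK genes stood at 35.3, 27.4 and 32.4 UMIs per 10000 in other leukocytes, against 0, 0.072 and 0.402 in macrophages.

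The lymphoid cells outside the neutrophil-gene and ccl35.1 sets below numbered 29, 25 and 48, and cells with il4 or il13 were kept among them. In these cells the NK-lysin gene nkl.2, a lytic peptide of zebrafish NK and T cells, stood at 10.8, 4.76 and 12 UMIs per 10000. The adaptor gene sla2 stood at 13.2, 8.61 and 9.36 and the chemokine ccl36.1 at 20.5, 5.31 and 15.7. A second chemokine, ccl34b.4, ran the other way at 14.4, 29.3 and 29.4. Interferon gamma, encoded by ifng1, stood at 1.27, 0.827 and 1.35, and tnfb, a paralog of tumour necrosis factor, at 6.48, 3.45 and 4.36. The macrophage gene mpeg1.1 stood at 0, 0.207 and 0 in these cells.

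The T cell list itself was thin. Over all other leukocytes the kinase gene zap70 had 2, 11 and 22 UMIs, lck 12, 10 and 25, cd8a 6, 6 and 16, cd8b 2, 7 and 21 and cd4-1 0, 11 and 2. Of the list's 17 genes in the files only sla2 had 50 UMIs, at 6.12, 4.60 and 5.36 per 10000. After thinning to 1800 UMIs, 38.3%, 21.3% and 37.5% of other leukocytes had an sla2 UMI, against 48.1%, 33% and 48.7% unthinned, with 5, 10 and 12 cells too shallow to enter.

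A gene without a functional name was abundant in the other leukocytes. The gene si:ch211-214p16.1 stood at 77.8, 28.3 and 41.0 UMIs per 10000 in other leukocytes, with single-cell medians of 94.1, 22.1 and 53.2, and was counted in 47 of 52, 35 of 57 and 61 of 76 cells. In macrophages it stood at 0.447, 0.201 and 0.745 and in the other cells at 0.0296, 0.0352 and 0.0268. Its ratio to Ctrl was 0.363 (0.335 to 0.393) at 3 dpa and 0.527 at 7 dpa.

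Over all other leukocytes the lymphoid chemokines showed 2 patterns. The chemokine ccl36.1 stood at 9.14, 2.71 and 9.1 UMIs per 10000, in 22, 14 and 29 cells, and ccl38.6 at 5.5, 3.02 and 7.19. By contrast ccl34b.4 stood at 6.44, 15 and 16.8, a ratio to Ctrl of 2.33 at 3 dpa and 2.61 (2.23 to 3.06) at 7 dpa. The log2 ratio of ccl34b.4 for 7 dpa against Ctrl was 1.38, and 1.98 without the tcf21-rich cells. The ccl36.1 difference depended on which cells were counted: its log2 ratio for 3 dpa against Ctrl was -1.75 pooled, -0.88 as the mean over cells and -1.05 without the highest Scrublet scores. Of 7 NK list genes tested for 3 dpa against Ctrl, 3 were past 2-fold higher and 3 lower, beside 12.1% and 7.78% of all genes. For nkl.3 and nkl.4, which were among the higher, 1 cell held 90% and 67% of the 3 dpa UMIs.

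Several neutrophil genes had no UMI in the Ctrl other leukocytes and were counted at 3 dpa. Myeloperoxidase, encoded by mpx, stood at 0 in Ctrl, at 3.84 UMIs per 10000 at 3 dpa, in 15 cells, and at 0.572 at 7 dpa, in 4 cells. With 3 counts taken for the Ctrl class together, the 3 dpa level was at least 40.8-fold higher and the 7 dpa level at least 6.07-fold higher. The gene lect2l, typical of zebrafish neutrophils, stood at 0, 11.9 and 2.0, in 0, 16 and 4 cells, and scpp8 at 0, 2.4 and 0.81. The leukotriene enzyme gene lta4h stood at 0, 3.29 and 0.572.

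At 3 dpa mpx, lect2l and scpp8 sat largely in the same cells. A set of cells with 2 or more UMIs over mpx, lect2l and scpp8, chosen after the values were seen, held 0 of 52 other leukocytes in Ctrl (0%, up to 6.85%), 16 of 57 at 3 dpa (28.1%, 17 to 41.5) and 4 of 76 at 7 dpa (5.26%, 1.45 to 12.9). It was met by 0, 3 and 1 macrophages and by 1, 0 and 1 of all other cells. Each of the 3 genes was counted in 15 of the 16 cells of 3 dpa. The median depth of the 16 cells was 3612.5 UMIs and that of the 4 was 4689.5. In them lect2l stood at 54.7 at 3 dpa and 31.2 at 7 dpa, and mpx at 17.7 and 8.91. These levels are high in part because the genes chose the cells. Nephrosin, the granulocyte protease encoded by npsn, stood at 8.36 and 12.6.

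The 3 dpa neutrophil-gene cells also carried inflammatory transcripts. Among them il1b, the interleukin-1 beta cytokine, stood at 10.1 UMIs per 10000, tnfb at 12.5, arginase arg2 at 16.2 and the Fc receptor chain gene fcer1gl at 27.0. The gelatinase gene mmp9 stood at 25.9 over 9 cells, with 46% of its UMIs in 1 cell. The leukocyte rule gene spi1b, which encodes the myeloid factor Pu.1, stood at 13.1, mpeg1.1 had no UMI, and si:ch211-214p16.1 stood at 2.21. The lysozyme gene lyz was counted in 9 of the 16 cells. The genes cpa5 and fcer1gl belong to the list of mast cell and eosinophil markers, and the newer symbol of mpx is EPX. Of the 16 cells, 13 had cpa5, with 41 UMIs, and 14 had fcer1gl. In the ccl35.1 cells and the lymphoid cells outside the sets at 3 dpa, cpa5 had no UMI and fcer1gl had 7 in each. Whether the set held more than 1 kind of cell was not tested. At 7 dpa, il1b stood at 1.86 and tnfb had no UMI in the 4 cells.

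Of the neutrophil list, 8 of 10 genes tested in other leukocytes were past 2-fold higher at 3 dpa against Ctrl and none lower. Of all genes 12.1% were higher, and the median log2 ratio of the list was 3.31. At 7 dpa against Ctrl 4 of 9 were higher, beside 9.41% of all genes. For 7 dpa against 3 dpa 1 of 12 was higher and 9 lower, beside 5.92% and 9.14% of all genes. The higher gene was lyz, the lysozyme, of which 1 cell held 95% of the 7 dpa UMIs. Several list members are not restricted to neutrophils: the list summed to 19.2, 7.45 and 11.7 UMIs per 10000 in the other cells, and 3 UMIs on 2 genes were reached by 75.5%, 73.8% and 74.1% of those cells, which is why the narrower set was used. Without the set's cells 90 genes were higher and 80 lower of 1021 for 3 dpa against Ctrl, in place of 142 and 91.

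A further set of cells expressed the chemokine ccl35.1 strongly and was largest in Ctrl. In other leukocytes the ccl35.1 level was 109 (106 to 113), 24.6 (22.9 to 26.5) and 30.4 (28.7 to 32.1) UMIs per 10000 in Ctrl, 3 dpa and 7 dpa, from 25, 13 and 17 cells with a UMI. The 3 dpa level was 0.225-fold that of Ctrl (0.207 to 0.244) and the 7 dpa level 0.278-fold (0.26 to 0.296). After thinning, 48.9%, 23.4% and 25% of the other leukocytes had a ccl35.1 UMI, against 48.1%, 22.8% and 22.4% unthinned. Cells with 20 or more UMIs of it, a limit chosen after the values were seen, numbered 20 of 52 (38.5%, 25.3 to 53.0), 9 of 57 (15.8%, 7.48 to 27.9) and 10 of 76 (13.2%, 6.49 to 22.9). Of the macrophages 12, 21 and 34 also reached 20 UMIs, and of all other cells 0, 1 and 0.

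The ccl35.1 cells also carried antigen-presentation and heme genes. In them cd74a stood at 27.4, 50.8 and 51.4 UMIs per 10000, mpeg1.1 at 6.01, 8.67 and 6.36 and hmox1a at 60.5, 40.1 and 18.8. The hmox1a UMIs came from 12, 6 and 3 cells, with 21%, 59% and 78% of them in 1 cell, and 1 cell held 16%, 42% and 43% of those of cd74a. The sister chemokine ccl35.2 stood at 20.5, 8.50 and 19.2 and ccl33.3 at 25.7, 18.0 and 49.7. One cell held 27%, 52% and 61% of the ccl35.2 UMIs and 24%, 74% and 60% of those of ccl33.3, which was counted in 13, 2 and 5 cells. The receptor kinase gene flt3, which acts in dendritic cell and progenitor development, stood at 1.28, 1.53 and 0.578. The lymphoid genes nkl.2, ccl36.1 and ccl38.6 had no UMI in this set, but si:ch211-214p16.1 stood at 72.9, 42.2 and 43.2 and 8, 2 and 3 of the cells also met the lymphoid lists. No cell was in both the ccl35.1 and the neutrophil set.

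Further genes were lower after amputation over all other leukocytes. The chemokine receptor gene ccr2 (ENSDARG00000105363) stood at 4.37, 0.686 and 1.12 UMIs per 10000, in 24, 6 and 21 cells, and ccl35.2 at 11, 1.92 and 3.22. The heme oxygenase gene hmox1a stood at 34, 9.74 and 5.22, in 16, 14 and 10 cells, with 20%, 49% and 46% of its UMIs in 1 cell. Its log2 ratio for 3 dpa against Ctrl in this class was -1.80, and -2.72 when cells with 5 to 9 C1q UMIs were moved to the macrophages. The ferritin fthl27 (ENSDARG00000031776) stood at 51.9, 23.2 and 18.4, highest in Ctrl as in macrophages. The libraries after amputation stood in the reverse of their order in macrophages.

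Small sets of cells carried type 2 cytokine or immunoglobulin genes, and these sets overlapped those above. At 3 dpa 66 UMIs of ighv1-4 lay in 1 neutrophil-gene cell and 180 UMIs of il13 in 2 lymphoid cells. Cells with 3 or more UMIs of the type 2 cytokines il4 and il13, chosen after the values were seen, numbered 1, 2 and 7, or 1.92%, 3.51% and 9.21% of the other leukocytes. The level of il13 was 0.283, 6.21 and 1.91 UMIs per 10000 in 2, 3 and 7 cells. The Ctrl level of il4, 2.29, came from 1 cell. Cells with 2 or more UMIs over the immunoglobulin genes ighv1-4, igic1s1 and ighz numbered 0, 3 and 5, while the B cell receptor genes cd79a and cd79b had at most 1 UMI in any library. The cells of none of the lymphoid, ccl35.1 and neutrophil sets numbered 3, 7 and 14.

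**Figure D5:**
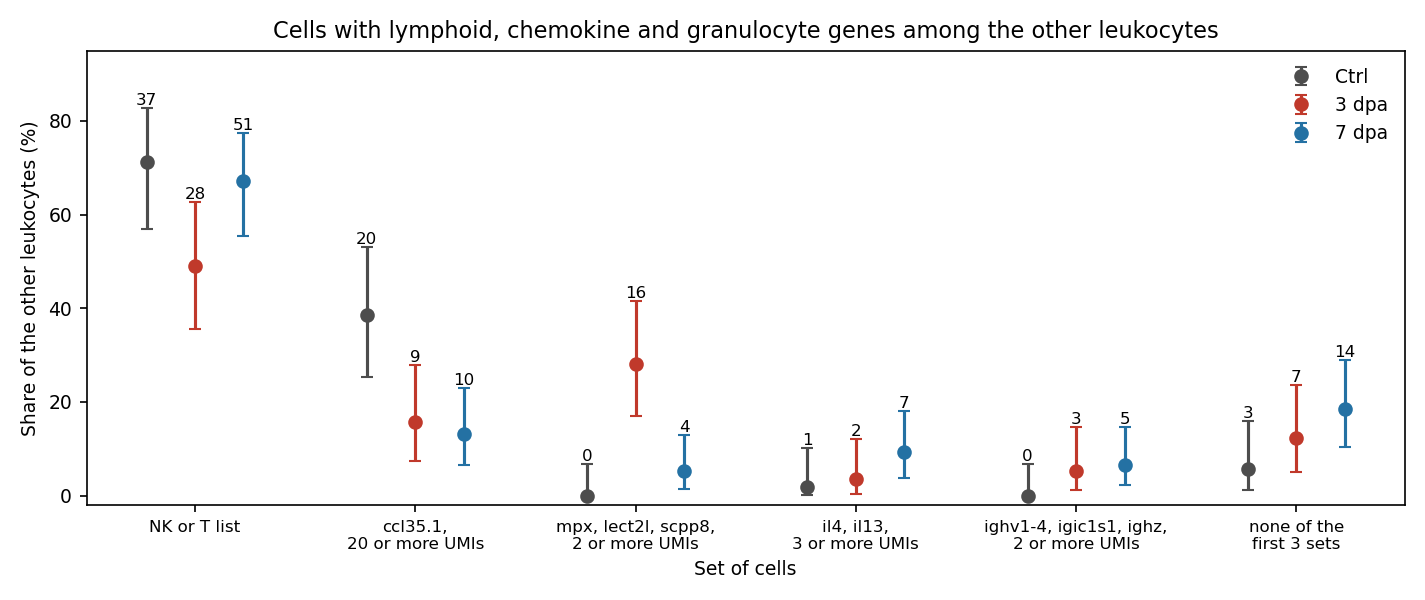
Share of the other leukocytes (y axis, percent) in each set of cells (x axis) in Ctrl, 3 dpa and 7 dpa, with exact 95% binomial intervals as bars and cell counts above. The set with mpx, lect2l and scpp8 holds 0, 16 and 4 cells, the ccl35.1 set 20, 9 and 10, and the cells that met the NK or T list 37, 28 and 51. Of the last, 8, 2 and 3 are also in the ccl35.1 set.

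Most genes tested from the resolving and growth factor list had higher pooled levels in the other leukocytes of 3 dpa than in those of Ctrl. The list also holds protease, matrix and cytokine genes. Of 12 genes tested from the resolving and growth factor list, 8 were past 2-fold higher and 2 lower, beside 12.1% and 7.78% of all genes. The median log2 ratio of the list was 2.09. Some of these differences rest on few cells. At 3 dpa 180 UMIs of il13 lay in 2 lymphoid cells. In the neutrophil-gene set 1 cell held 82% of the 88 UMIs of the metalloproteinase gene mmp13a. The Ctrl UMIs of il4 came from 1 cell. The higher genes included arg2, at 0.440, 4.01 and 0.977 UMIs per 10000 in Ctrl, 3 dpa and 7 dpa, and mmp9, at 0.126, 5.63 and 1.93, of which 1 cell held 91% at 7 dpa. They also included fn1a, at 0.377, 6.38 and 2.67, against 0.915, 17.6 and 4.41 in the other cells. The angiogenic factor gene vegfaa was lower, at 3.58, 0.961 and 0.786, and stood at 12.7, 2.74 and 4.25 in the other cells. At 3 dpa mmp9 had UMIs in the neutrophil-gene set alone. In that set arg2 stood at 16.2, against 0.482 in the 25 lymphoid cells outside the sets. It stood at 1.02 in the 9 ccl35.1 cells and 0.414 in the 7 remaining cells. The parts of RNA from the surrounding cells and of the mix of cell kinds in these levels were not tested.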

How the data were processed

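Single-cell RNA was measured in 3 libraries, 1 per condition (Ctrl, 3 dpa and 7 dpa). The authors processed the reads with Cell Ranger 3.0.2 on the GRCz10 build and deposited gene-by-barcode matrices of raw UMI counts for 32520 genes. All values were computed from those counts with Python 3.11.15, numpy 2.4.6 and scipy 1.17.1, doublet scores with Scrublet in scanpy 1.11.5, and plots with matplotlib 3.10.9. Droplets were kept with a minimum of detected genes, taken from the study's methods, and at most 5% of UMIs on 13 mitochondrial genes. Doublets were kept in the main results. UMIs were summed per class and library and divided by the class total. Levels have exact Poisson intervals, ratios exact conditional ones and shares Clopper-Pearson ones at the 95% level, which describe counting alone. No test between conditions was made, since each was 1 library.

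A ratio counted as past 2-fold when it was at least 2-fold higher or lower, whatever its interval, among genes with at least 50 UMIs over both groups, without the 8 genes that chose the cells. A group at 0 was set to 3 counts over the class to give a bound. For shares of cells with a UMI, each cell was thinned to 1800 UMIs. The calculation was tested on simulated counts with known ratios.

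Genes were named by 4 rules: the genes that chose the cells, the 15 with the largest smallest-of-3-libraries ratio between classes, the 8 each way per pair of libraries whose interval bound lay farthest from 1, and list members with at least 50 UMIs. For pairs of libraries a named gene had UMIs in at least 5 cells, no cell with over 20% of them and a level at least 2-fold that of the other cells. Genes outside these rules, and the sets of cells by mpx, lect2l and scpp8, by ccl35.1, by il4 and il13 and by immunoglobulin genes, were chosen after their values were seen. The cells, lists and rules were chosen with earlier results of these data known. Of the 32520 identifiers 29201 had a name in the reference table. Alternatives changed the UMI and C1q limits, the cell filters, the doublets, the tcf21-rich cells, the averaging and the least UMIs per gene. Some genes that the rules gave are not reported here.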

Additional observations from a re-analysis of the deposited data

Results flagged for a closer look

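Genes tested in both classes numbered 1045 for 3 dpa against Ctrl and 1178 for 7 dpa against Ctrl. For 7 dpa against 3 dpa they numbered 1213. Given here are 5 genes that were past 2-fold in opposite directions in macrophages and in other leukocytes. For each of the 5 both intervals excluded 1. The number of all genes past 2-fold in opposite directions, whatever their intervals, is not given. With 1 library per condition the difference between the classes was not tested for any of the 5.

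The immediate early gene jun had a log2 ratio for 3 dpa against Ctrl of -1.06 in macrophages and 1.07 in other leukocytes. Its level was 3.16 UMIs per 10000 at 3 dpa and 6.62 in Ctrl in macrophages, where 1 cell held 38% of the Ctrl UMIs, and 11.3 at 3 dpa and 5.37 in Ctrl in other leukocytes.

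The fatty-acid-binding protein gene fabp3 had a log2 ratio for 7 dpa against Ctrl of -1.13 in macrophages, at 0.639 against 1.4 UMIs per 10000, and of 1.14 in other leukocytes, at 2.22 against 1.0. The organic anion transporter gene slco2b1 had a log2 ratio of -1.0 in macrophages, at 0.402 at 7 dpa against 0.805 in Ctrl, and of 1.42 in other leukocytes, at 1.76 against 0.659.

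The myeloid transcription factor gene cebpa had a log2 ratio for 7 dpa against 3 dpa of 1.23 in macrophages, at 5.11 against 2.19 UMIs per 10000, and of -1.08 in other leukocytes, at 0.667 against 1.41. The kindlin gene fermt3b, whose product activates integrins, had a log2 ratio of 1.01 in macrophages, at 1.74 at 7 dpa against 0.863 at 3 dpa, and of -1.09 in other leukocytes, at 0.691 against 1.48.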

How the results depend on the processing

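No paired analysis was possible because the labels give no replicate numbers and each condition is 1 library, and for the same reason no replicate could be left out. With a limit of 10 UMIs on the 5 leukocyte genes, leukocytes were 1.26%, 2.48% and 1.95% of cells in Ctrl, 3 dpa and 7 dpa, and macrophages were 61.9% of leukocytes at 3 dpa and 67.4% at 7 dpa. Without the tcf21-rich cells the leukocyte shares were 1.22%, 2.51% and 1.96%. The percent of genes past 2-fold was 12.5% for macrophages, 7 dpa against Ctrl, with at least 20 UMIs per gene, 11.9% for other leukocytes, 3 dpa against Ctrl, with at least 200 UMIs, and 24.1% for other leukocytes, 7 dpa against 3 dpa, without the highest Scrublet scores. Of 616 values of 88 named ratios under the other settings, 538 lay inside the counting interval of the main ratio, 78 outside it and 0 had the opposite sign. These ratios were picked for intervals far from 1, those with a group at 0 were left out, and the settings reuse most of the cells. A change of sign was therefore unlikely from the start.

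Counts of genes past 2-fold followed the least number of UMIs. In macrophages, 3 dpa against Ctrl, 290 higher and 83 lower genes became 70 and 24 at 200 UMIs, 807 and 194 at 20, 146 and 43 without tcf21-rich cells and 204 and 49 without the highest Scrublet scores. The macrophage counts of 102 and 39 for 7 dpa against Ctrl became 28 and 4 at 200 UMIs and 351 and 145 at 20, and for 7 dpa against 3 dpa 93 and 237 became 26 and 62, 237 and 640, and 78 and 151 without tcf21-rich cells. In other leukocytes, 3 dpa against Ctrl, 142 and 91 became 24 and 16 at 200 UMIs, 379 and 283 at 20, and 110 and 39 without tcf21-rich cells. The counts of 127 and 78 for 7 dpa against Ctrl became 36 and 16, 331 and 254, 45 and 36 without tcf21-rich cells, and 71 and 68 with limits set on levels. Those of 79 and 122 for 7 dpa against 3 dpa became 29 and 22, 247 and 324, 27 and 100 without tcf21-rich cells, and 111 and 109 without the highest Scrublet scores. Apart from the smaller or larger number of genes tested, the cause was not tested.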

Other observations

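Further genes given by the naming rules are reported here as values. In other leukocytes BX908782.2 stood at 0 UMIs per 10000 in Ctrl, 17 at 3 dpa and 3.07 at 7 dpa, in 0, 15 and 4 cells. The metalloproteinase gene adam8a stood at 0.188, 5.8 and 1.24 in the same class, and at 1.43, 2.5 and 2.48 in macrophages. The transcriptional repressor gene bhlhe40 stood at 3.27, 4.84 and 6.43 in other leukocytes, in 36, 37 and 59 cells, and ponzr6 at 0.659, 2.2 and 2.12, in 11, 20 and 25 cells.

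From cell to cell the lysosomal protease genes lgmn and ctsd had a Spearman's rho of 0.33 over 30 Ctrl macrophages, 0.57 over 63 at 3 dpa and 0.58 over 89 at 7 dpa. These cells share a library and differ in depth, and the values are descriptions.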
